A study of Mus musculus with 10 samples.

Results

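Lipopolysaccharide, the outer membrane glycolipid of Gram-negative bacteria, is sensed by a relay of proteins, and 10 genes of this relay were examined here out of 47333 genes measured in mouse lung. The genes were Tlr4, Ly96, Cd14, Tlr2, Cd180, Myd88, Irak1, Irak3, Tnfaip3 and Nfkbia, matched by their Ensembl gene identifiers to GENCODE M21 symbols and picked by name. The tissue was the right middle lung lobe of naive C57BL/6J mice aged 12 weeks, read by RNA-seq: 5 lacking Bpifb1 (KO) and 5 wild type (WT), with no treatment in either group. By label, 1 of the KO mice was male and 4 were female, and 2 of the WT mice were male and 3 female. The labels state the loss of Bpifb1 but not the kind of allele, and both genotypes shared cages. They do not say that mice of a genotype came from separate litters, so the p-values measure the spread between these animals.

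In the textbook pathway, lipopolysaccharide is drawn out of membranes by a carrier protein, handed to CD14, and loaded into MD-2 (the product of Ly96), which sits on Toll-like receptor 4. The paired receptors recruit the adaptor MyD88 and the IRAK kinases, which release the transcription factor NF-kappaB from its inhibitor IkappaB-alpha (the product of Nfkbia). NF-kappaB then switches on its own brakes, among them Nfkbia and the ubiquitin-editing enzyme A20 (the product of Tnfaip3), so these transcripts serve as a readout of pathway activity in many cells. BPI, the protein that gives the BPI fold family of Bpifb1 its name, binds lipopolysaccharide, and the comparison here asks whether the sensing genes differ in an unchallenged lung that lacks Bpifb1.

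Each mouse had 21357424 to 28321294 rounded counts, and 3 counts, taken as the detection floor, were worth 0.104 to 0.143 counts per 1000000 (CPM, on totals scaled by TMM); the floor covers counting error only. Bpifb1 itself measured 28.1 to 79.6 CPM in WT mice and 0.217 to 1.26 CPM in KO mice, an edgeR log2 fold change of -6.55 (SE 0.55, adjusted p = 0.0275, but 0.23 in the least favourable alternative), so no library went against its genotype label. The lung identity of the pieces was plain: 8 alveolar type 2 markers summed to 23732 to 29293 CPM per mouse and none of the 8 was at 0 throughout. One library stood apart from its sex label: KO replicate 5, labelled female, had 1.78 CPM of Xist, against 274 to 407 CPM in the other 6 females and 1.29 to 1.73 CPM in the males. Its label was kept in the sex covariate and in the groups of males and females, and no fit took this mouse as male. Results are therefore also given without it. In lung pieces, fewer cells of a type and less RNA per cell cannot be told apart.

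The 10 genes were present at very different levels, and all passed the filter on low counts. Per kilobase of exon (RPKM, over all 10 mice), Nfkbia was far the most abundant at 109 ± 19.7 (SD, n = 10), followed by the kinase gene Irak1 at 22.1 ± 0.619. The coreceptor gene Cd14 (17.3 ± 1.49 RPKM) and the adaptor gene Myd88 (16.9 ± 0.909 RPKM) came next and could not be ordered, since Cd14 was the higher in only 4 of 10 mice. Tlr2, which detects bacterial lipoproteins, stood at 8.96 ± 1.02 RPKM. Each of these steps except that between Cd14 and Myd88 held in 10 of 10 mice with ranges that did not overlap.

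The lower end of the order held the receptor complex itself. Tnfaip3 measured 3.84 ± 0.533 RPKM, Irak3 3.65 ± 0.235, Tlr4 3.53 ± 0.390, Cd180 2.99 ± 0.340 and Ly96 2.44 ± 0.414 RPKM (SD, n = 10 each). The ranges of neighbours in this group overlapped. Tlr4 nevertheless exceeded Cd180 in 10 of 10 mice, whereas Irak3 exceeded Tlr4 in 7 of 10. In RPKM, the ratio of Cd14 to Tlr4 was 5.14 ± 0.830 in WT and 4.78 ± 0.802 in KO mice (SD, n = 5 each). That of Ly96 to Tlr4 was 0.745 ± 0.170 in WT and 0.653 ± 0.134 in KO mice (SD, n = 5 each). RPKM divides by all annotated exon bases of a gene, so the order and the ratios are not those of transcript numbers. Both ratios overlapped between the genotypes.

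**Figure D1:**
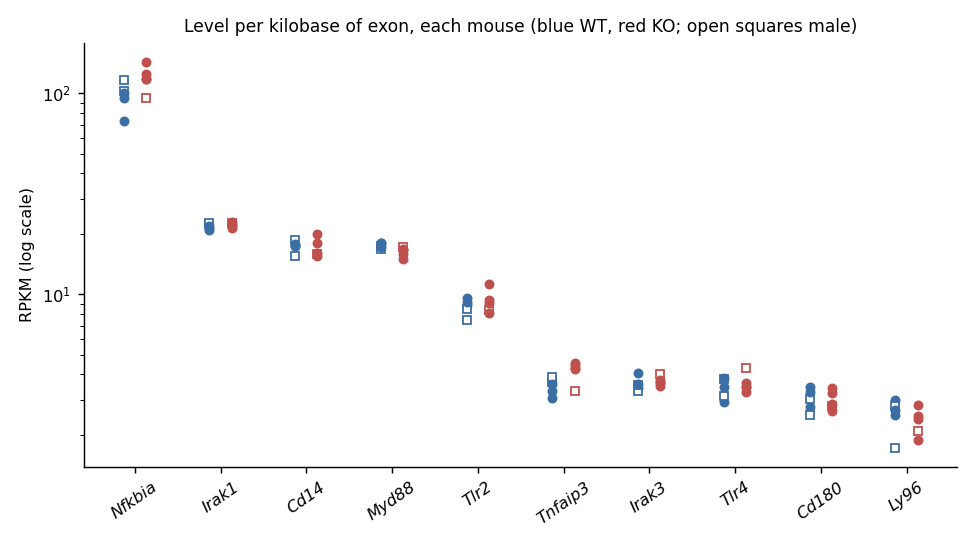
Level of each of the 10 genes in every mouse, in RPKM on a log axis, with WT mice in blue, KO mice in red and males as open squares. Nfkbia lies near 109 RPKM and the 5 lowest genes lie together between 1.73 and 4.55 RPKM.

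None of the 10 genes passed the test between KO and WT. By edgeR's quasi-likelihood test with sex as a covariate, 0 of 10 had an adjusted p under 0.05, where 0.0222% of all 18024 tested genes did. The DESeq2 Wald test and limma-voom also called 0 of the 10. At an unadjusted p under 0.05 stood 1 of 10, Tnfaip3, where 17.0% of all tested genes did (8.92% higher and 8.04% lower in KO). CPM ranges of the genotypes overlapped in all 10 genes; they did not overlap in 1.88% of tested genes. The median log2 fold change of the 10 was 0.04, beside -0.0027 over all tested genes, with 6 of the 10 positive.

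Tlr4 (ENSMUSG00000039005; GRCm38 chromosome 4, 66827584 to 66930284, plus strand), the signalling receptor for lipopolysaccharide, measured 16.2, 17.4, 21.1, 19.2 and 21.3 CPM in WT replicates 1 to 5 and 23.9, 20.1, 18.2, 19.3 and 19.2 CPM in KO replicates 1 to 5. The highest value belonged to KO replicate 1 and the other KO mice lay inside the WT range. Its log2 fold change was 0.10 (SE 0.09, edgeR adjusted p = 0.58), with a 95% interval of -0.09 to 0.29.

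Ly96 (ENSMUSG00000025779; chromosome 1, 16688051 to 16709611, plus strand) encodes MD-2, which holds the lipid in its pocket. It was the least counted of the 10, with 37 to 79 counts per mouse, and its edgeR log2 fold change of -0.17 (SE 0.16, adjusted p = 0.64) had the widest interval of the 10, -0.52 to 0.18. Levels ran from 1.76 to 3.04 CPM in WT and from 1.94 to 2.86 CPM in KO mice.

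Cd14 (ENSMUSG00000051439; chromosome 18, 36725067 to 36726798, minus strand), the coreceptor that hands the lipid on, measured 30.1, 32.4, 26.8, 30.3 and 30.9 CPM in WT and 27.6, 27.0, 27.9, 31.1 and 34.7 CPM in KO replicates 1 to 5. The WT values lay inside the span of the KO values except for the lowest of them. The log2 fold change was -0.04 (SE 0.08, edgeR adjusted p = 0.85; 95% interval -0.20 to 0.13).

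Tlr2 (ENSMUSG00000027995; chromosome 3, 83836272 to 83841767, minus strand) ran from 22.4 to 28.9 CPM in WT and from 24.3 to 33.8 CPM in KO mice. Its edgeR log2 fold change of 0.04 (SE 0.08, adjusted p = 0.82; 95% interval -0.13 to 0.22) became -0.02 without KO replicate 4, the mouse with the highest value.

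Cd180 (ENSMUSG00000021624; chromosome 13, 102693558 to 102739629, plus strand) encodes RP105, a receptor of B cells and myeloid cells that resembles TLR4 outside the cell but has no signalling domain inside it, and that restrains TLR4 in myeloid cells. It measured 12.3, 11.3, 13.5, 15.6 and 14.7 CPM in WT and 12.5, 15.5, 14.5, 11.8 and 12.9 CPM in KO replicates 1 to 5. Both groups spanned nearly the same range, and the log2 fold change was -0.04 (SE 0.09, edgeR adjusted p = 0.88; 95% interval -0.24 to 0.17). The summed level of 8 B cell markers ranged from 190 to 270 CPM in WT and from 149 to 310 CPM in KO mice; its lowest mouse, KO replicate 4, also had the lowest Cd180 among the KO mice, and the part of B cell content in Cd180 was not tested. Per length, Cd180 stood to Ly86, the gene of its partner MD-1, at 0.90 ± 0.098 in WT and 0.952 ± 0.052 in KO mice (SD, n = 5 each).

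**Figure D2:**
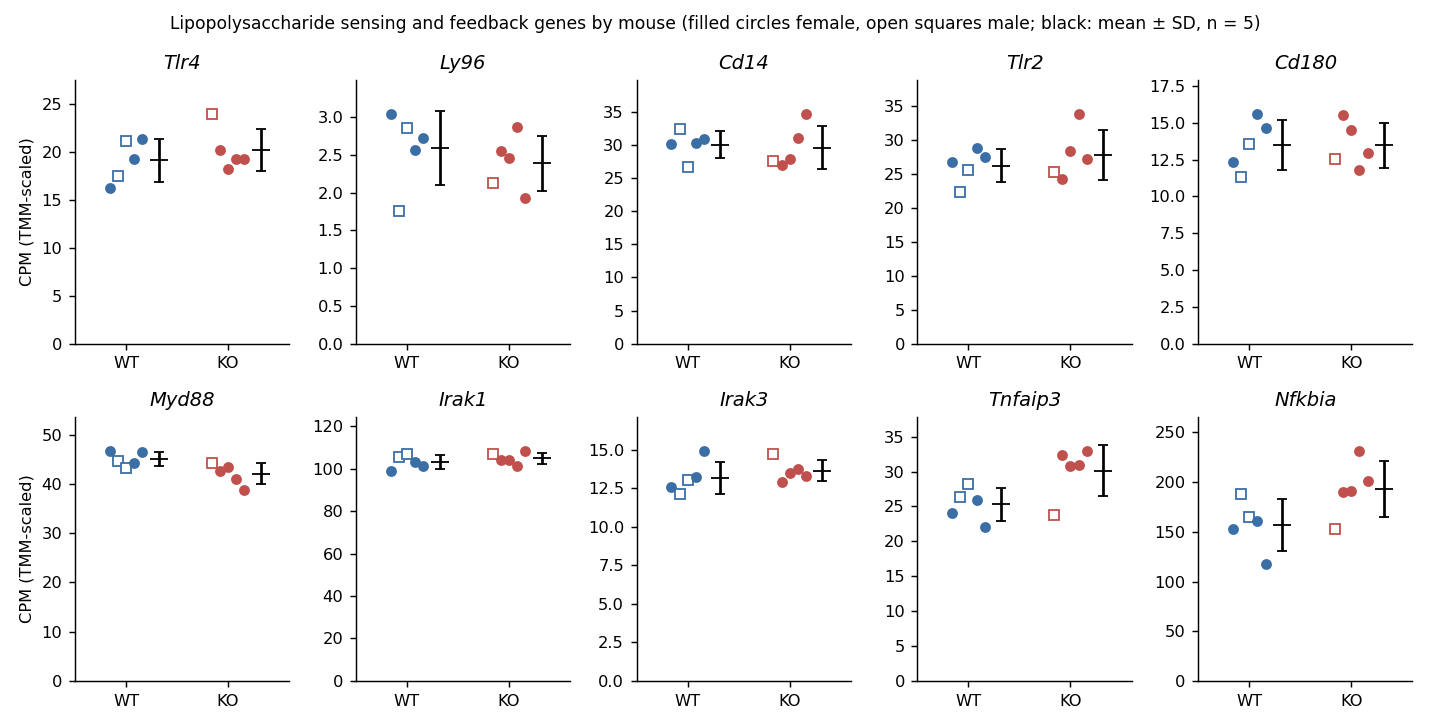
CPM of each gene in every mouse on axes that start at 0, with WT in blue, KO in red, females as filled circles and males as open squares, and the mean ± SD of 5 mice in black. Receptor and kinase genes overlap between the genotypes, and the 4 KO mice labelled female lie above the 3 WT females for Tnfaip3 and Nfkbia.

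The adaptor and kinase genes varied least among the 10, with coefficients of variation over all mice of 2.81% to 6.46%. Irak1 (ENSMUSG00000031392; chromosome X, 74013914 to 74023918, minus strand), the kinase that carries the signal from the adaptor, measured 103 ± 3.20 CPM in WT and 105 ± 2.68 CPM in KO mice (SD, n = 5 each). It was the steadiest of the 3, and its 95% interval of -0.06 to 0.13 around an edgeR log2 fold change of 0.03 (SE 0.04, adjusted p = 0.72) was the narrowest. Irak3 (ENSMUSG00000020227; chromosome 10, 120141648 to 120202130, minus strand), which encodes IRAK-M, a kinase relative that dampens the signal, measured 13.2 ± 1.04 CPM in WT and 13.6 ± 0.674 CPM in KO mice (SD, n = 5 each). Its log2 fold change was 0.05 (SE 0.07, edgeR adjusted p = 0.78; 95% interval -0.11 to 0.21), and the direction turned in females alone (-0.02).

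Myd88 (ENSMUSG00000032508; chromosome 9, 119335934 to 119341411, minus strand), the adaptor shared by most Toll-like receptors, measured 46.6, 44.7, 43.3, 44.3 and 46.4 CPM in WT replicates 1 to 5. In KO replicates 1 to 5 it measured 44.3, 42.6, 43.3, 41.1 and 38.8 CPM. The groups overlapped only through KO replicates 1 and 3. The edgeR log2 fold change of -0.10 (SE 0.05, unadjusted p = 0.0713, adjusted p = 0.34; 95% interval -0.21 to 0.01) did not pass. Acaa1a, a peroxisomal thiolase gene on the opposite strand, covers 11.3% of the exon bases of Myd88 and had an edgeR log2 fold change of -0.18 (adjusted p = 0.19); the library kit marks strand, but whether counting used it is not given in the sources used here, so the 2 genes may share reads.

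Tnfaip3 and Nfkbia, here called the feedback genes, had the 2 smallest genotype p-values of the 10, though neither passed. Irak3 and Cd180, whose products also dampen the signal, had edgeR unadjusted p of 0.53 and 0.71. Tnfaip3 (ENSMUSG00000019850; chromosome 10, 19000910 to 19015657, minus strand) encodes A20, which removes the ubiquitin chains that carry the signal. It measured 24.0, 26.4, 28.2, 26.0 and 22.0 CPM in WT replicates 1 to 5. In KO replicates 1 to 5 it measured 23.8, 32.3, 30.8, 30.9 and 32.9 CPM. KO replicates 2 to 5, all labelled female, lay above every WT mouse, and KO replicate 1, the mouse labelled male, lay below all but 1 of the WT mice. The highest value was that of KO replicate 5, whose Xist level was that of the males. Group means were 25.3 ± 2.37 CPM in WT and 30.1 ± 3.64 CPM in KO (SD, n = 5 each), an edgeR log2 fold change of 0.24 (SE 0.09, unadjusted p = 0.0248, adjusted p = 0.23; 95% interval 0.04 to 0.45).

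Nfkbia (ENSMUSG00000021025; chromosome 12, 55489410 to 55492647, minus strand), the inhibitor that holds NF-kappaB in the cytoplasm, followed the same pattern. WT replicates 1 to 5 measured 152, 188, 165, 161 and 117 CPM. KO replicates 1 to 5 measured 153, 190, 191, 231 and 202 CPM. Again KO replicates 2 to 5 lay above all WT mice, by a small margin over WT replicate 2, and KO replicate 1 lay among the lowest WT values. The log2 fold change was 0.31 (SE 0.14, edgeR unadjusted p = 0.0512, adjusted p = 0.30; 95% interval -0.0020 to 0.63). Without KO replicate 5 the log2 fold changes were 0.21 for Tnfaip3 and 0.30 for Nfkbia, and without KO replicate 1 they were 0.40 and 0.50. Without WT replicate 5, the lowest WT mouse for both genes, they were 0.17 and 0.18. The edgeR unadjusted p of Tnfaip3 rose over 0.05 without KO replicate 5 (0.0558), KO replicate 2 (0.0534), WT replicate 1 (0.0738) or WT replicate 5 (0.10). It stayed under 0.05 with any other single mouse left out.

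**Figure D3:**
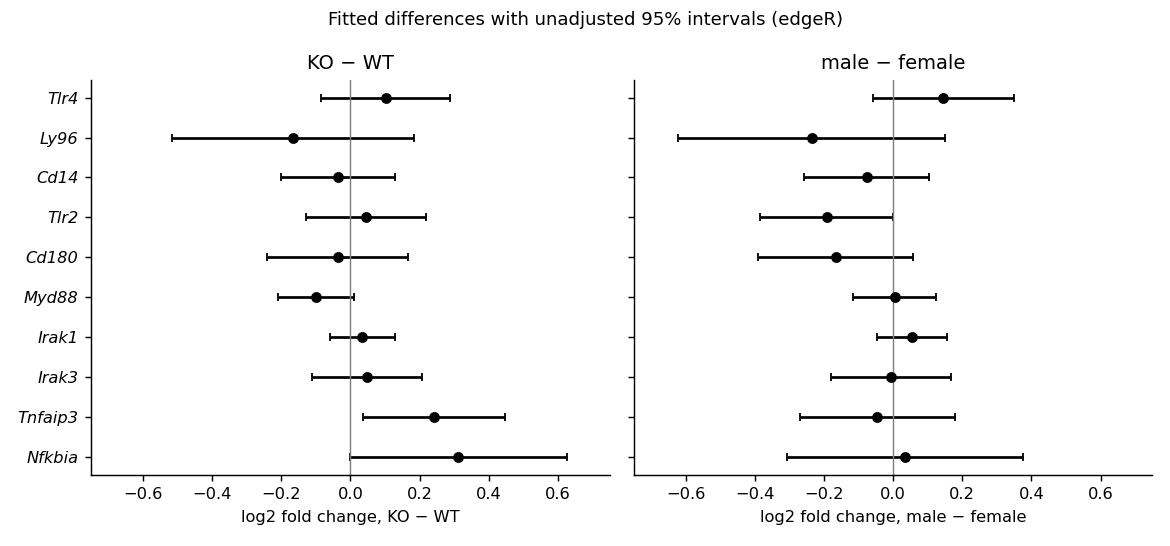
Fitted log2 fold changes of the 10 genes with unadjusted 95% intervals, KO against WT on the left and male against female on the right. Tnfaip3 (0.24) and Nfkbia (0.31) have the largest genotype differences, and the genotype interval of Tnfaip3 alone excludes 0.

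Within the 7 mice labelled female, KO replicate 5 included, the same 2 genes separated further. Tnfaip3 measured 31.7 ± 1.03 CPM in 4 KO females and 24.0 ± 1.97 CPM in 3 WT females (SD), an edgeR log2 fold change of 0.40 (SE 0.07, unadjusted p = 9.1e-05, adjusted p = 0.10). Nfkbia stood at 203 ± 19.1 CPM in the KO females and at 144 ± 23.1 CPM in the WT females (SD), an edgeR log2 fold change of 0.50 (SE 0.11, unadjusted p = 0.00107, adjusted p = 0.17). Myd88 went the other way, with 41.5 ± 1.99 CPM in KO and 45.8 ± 1.27 CPM in WT females (edgeR log2 fold change -0.14, SE 0.06, adjusted p = 0.33). None of the 10 genes passed in females, where 0.0219% of tested genes did. These 3 genes had an unadjusted p under 0.05 (13.7% of tested genes) and ranges that did not overlap (12.4% of tested genes). With KO replicate 5 also left out, a setting added after seeing the data, the log2 fold changes were 0.39, 0.51 and -0.11. A difference between the sexes in the genotype effect was not tested. By label it would rest on 1 KO male, and KO replicate 5, with Xist at the male level, had Tnfaip3 at 32.9 and Nfkbia at 202 CPM, beside 23.8 and 153 CPM in KO replicate 1.

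Because the products of both feedback genes are made from NF-kappaB-driven promoters, their start regions are shown. The table of RefSeq promoters (GRCm38.p6) held 11 windows for 7 of the 10 genes. In the 250 bases before each start, the kappaB consensus of NF-kappaB, searched on both strands, was found in Nfkbia, Tnfaip3 and Tlr2, and in 3.9% of all 32851 windows of that length. The Nfkbia promoter (chr12:55492648-55492897, minus strand, directly upstream of the gene) is printed whole with its match in capitals, 29 to 20 bases before the start:
Nfkbia: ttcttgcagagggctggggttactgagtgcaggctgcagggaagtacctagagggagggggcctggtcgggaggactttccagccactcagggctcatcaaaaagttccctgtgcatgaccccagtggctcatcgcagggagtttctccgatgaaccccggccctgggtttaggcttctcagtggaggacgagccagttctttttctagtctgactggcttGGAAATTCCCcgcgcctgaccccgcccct
The other matches are shown with their flanks, as 30 bases each, for comparison with it. Those of Tnfaip3 (chr10:19015516-19015545 and chr10:19015403-19015432, minus strand) begin 125 and 12 bases before the same RefSeq start. They lie inside the longer gene that GENCODE M21 draws, the second overlapping an annotated untranslated exon. The window of another RefSeq start of Tnfaip3 (chr10:19011914-19012213) held 0 kappaB and 0 AP-1 matches. That of Tlr2 (chr3:83841761-83841790, minus strand) consists of a pair of overlapping matches.
Tnfaip3 distal: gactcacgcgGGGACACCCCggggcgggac
Tnfaip3 proximal: aatttccatcGGAAATCCCCctgttggcaa
Tlr2: aggacacctGGGGAATTCCCacacggagcc
Searched likewise, the AP-1 motif TGANTCA was found in Tnfaip3 among these genes (6.75% of all windows), 136 to 130 bases before the start with the kappaB matches. Neither the cyclic AMP element TGACGTCA (1.55%) nor the CArG box of serum response factor (1.47%) was found in any of the 7. A match is a string of letters and was not tied to binding here.

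Across the 10 mice, whatever their genotype, Tnfaip3 and Nfkbia went together. Pearson's r of their log2 CPM was 0.868 (permutation p = 0.00071, adjusted over the 45 pairs of the 10 genes 0.0160) and Spearman's rho 0.915 (permutation p = 0.00055, adjusted 0.0248). Without the 2 mice farthest from the median of Tnfaip3, r was 0.795. Computed on deviations from the genotype means it was 0.790, with no p-value, and 5 mice of a genotype were too few for a value of their own. The permutations shuffled all 10 mice regardless of genotype, so their p-values do not set aside a genotype difference shared by both genes. KO replicate 1 and WT replicate 5 were the lowest of their genotype in both genes. In KO replicates 2 to 5 Tnfaip3 measured 32.3, 30.8, 30.9 and 32.9 CPM and Nfkbia 190, 191, 231 and 202 CPM.

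Myd88 ran against both feedback genes. Its r with Tnfaip3 was -0.858 (permutation p = 0.00067, adjusted 0.0160) with a rho of -0.867 (permutation p = 0.0023, adjusted 0.0518). This r was -0.880 without the 2 mice farthest from the median of Myd88 and -0.750 on deviations from the genotype means. The r of Myd88 with Nfkbia was -0.767 (permutation p = 0.0116, adjusted 0.14) with a rho of -0.842 (permutation p = 0.00374, adjusted 0.0561). This r was -0.744 without the same 2 mice and -0.618 on the deviations. Of the 45 pairs 2 thus had an adjusted p under 0.05 by Pearson's r, and of these Tnfaip3 with Nfkbia also by Spearman's rho. Of the pairs outside these 3 genes the nearest was Tlr4 with Irak3 (r 0.753, permutation p = 0.0121, adjusted 0.14). Its rho was 0.636 (permutation p = 0.0536, adjusted 0.48), and its r was 0.588 without the 2 mice farthest from the median of Tlr4. Irak3 had an r of -0.427 with Nfkbia and -0.337 with Tnfaip3 (permutation p = 0.22 and 0.34, adjusted 0.81 and 0.83). On deviations from the genotype means these were -0.792 and -0.730. Without the 2 mice farthest from the median of Irak3 they turned to 0.502 and 0.611.

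The genes most like each member over the 10 mice, taken as the highest Pearson r among about 12876 others with a mean of at least 5 CPM and given as a description, differed between the 2 feedback genes. For Nfkbia they were Errfi1 (r 0.972), Csrnp1 (0.964) and Rhob (0.959), of which Errfi1 encodes a feedback inhibitor of the EGF receptor and Rhob a small GTPase. For Tnfaip3 they were Ercc6 (0.982), Fendrr (0.975) and Helz2 (0.949). For Cd180 they were Tspyl3 (0.901), Slfn1 (0.868) and Ccr2 (0.867), the chemokine receptor of classical monocytes. For Tlr4 they were Acbd5 (0.962), Stag2 (0.959), which encodes a cohesin subunit, and Nebl (0.958). For Tlr2 they were P2ry2 (0.910), a nucleotide receptor gene, Rab31 (0.901) and Rtl8c (0.898). For Myd88 they were Efna1 (0.959), Emc2 (0.954) and Aptx (0.951). The highest were Ttc34 (0.898) for Cd14, Nosip (0.906) for Ly96, Rab3gap2 (0.952) for Irak1 and Rnf138 (0.920) for Irak3. None of these lists contained another of the 10 genes.

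Immediate early genes respond within minutes to many stimuli including tissue handling, and their values are given beside the feedback genes. The 12 genes of that list summed to 1346, 1309, 1262, 1240 and 928 CPM in WT replicates 1 to 5 and to 1421, 1537, 1566, 1608 and 1605 CPM in KO replicates 1 to 5. In this sum all KO mice lay above all WT mice, and WT replicate 5 was lowest here, in Nfkbia and in Tnfaip3 alike. The sum leans on its most abundant genes. In the labelled females Klf2, Jun and Klf4 averaged 426, 359 and 249 CPM in KO and 263, 306 and 181 CPM in WT. By edgeR 0 of the 12 passed, 7 had an unadjusted p under 0.05, all higher in KO where 8.92% of tested genes were, and all 12 log2 fold changes were positive with a median of 0.43. In the labelled females alone 10 of the 12 were higher in KO, and 7 had an edgeR unadjusted p under 0.05, where 13.7% of tested genes did. There Junb (-0.05) and Ier2 (-0.08) were lower in KO. Fos (0.62, edgeR unadjusted p = 0.28) and Egr1 (0.56, unadjusted p = 0.22) were not among the 7. Over all 10 mice Nr4a1, an orphan nuclear receptor gene, had the smallest p of the list (edgeR log2 fold change 0.97, SE 0.16, adjusted p = 0.0911). Because the genotypes did not overlap in this sum and held 5 mice each, no correlation with Nfkbia was computed, and the part of these genes in the feedback result was not tested. Also higher in KO at an unadjusted p under 0.05 were 7 of 9 heat shock genes (median log2 fold change 0.38), where 8.92% of tested genes were. Lower in KO at that p were 5 of 8 alveolar type 2 markers (median -0.16) and 2 of 6 club cell markers (6 of 6 negative, median -0.15), where 8.04% of tested genes were. By edgeR 0 genes of these 3 lists were called, and their part was not tested either. KO replicate 1 had an immediate early sum of 1421 CPM, Tnfaip3 at 23.8 CPM, Nfkbia at 153 CPM and a heat shock sum of 2593 CPM. How these values of 1 mouse relate was not tested.

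**Figure D4:**
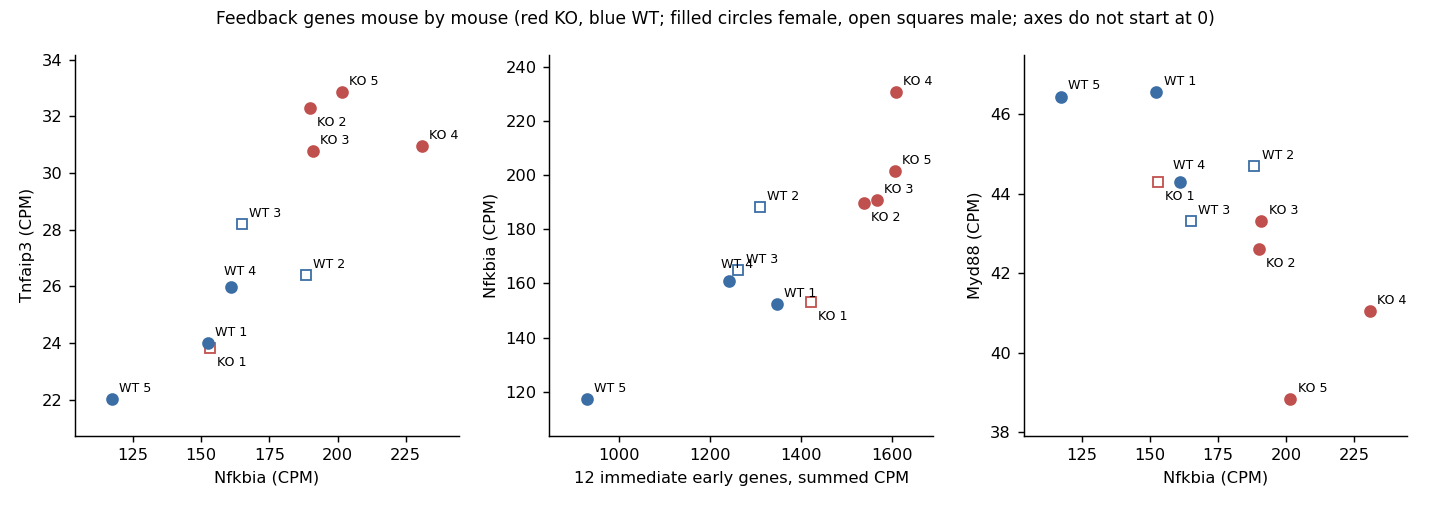
Tnfaip3 against Nfkbia, Nfkbia against the summed CPM of 12 immediate early genes, and Myd88 against Nfkbia, each point a mouse labelled by genotype and replicate (KO red, WT blue, males open squares; axes do not start at 0). Tnfaip3 and Nfkbia go together (r 0.868), Myd88 runs against Nfkbia (r -0.767), and the KO sums of 1421 to 1608 CPM lie above the WT sums of 928 to 1346 CPM.

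The rest of the pathway was read from 6 lists holding 105 further genes, of which 97 could be tested. Between KO and WT 0 passed by edgeR, 18 had an unadjusted p under 0.05 (10 higher and 8 lower in KO), which is 18.6% of them beside 17.0% of all tested genes, and the median log2 fold change was 0.03. The DESeq2 Wald test called 2 of the 97, Ptgs2 and Atf3, and limma-voom 0.

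Among the lipid carriers and receptor partners, Bpi itself had 0 counts in all 10 mice, and the lipopolysaccharide-binding protein gene Lbp measured 68.6 ± 2.6 CPM in WT and 64.1 ± 4.49 CPM in KO mice (SD, n = 5 each; edgeR log2 fold change -0.11, SE 0.05, adjusted p = 0.33). Of the 11 tested genes of this list 1 had an unadjusted p under 0.05, where 17.0% of all tested genes did. It was Tril, a TLR4 accessory gene (log2 fold change -0.18, edgeR adjusted p = 0.22). Of the 10 other Toll-like receptor genes 0 had an unadjusted p under 0.05, and their log2 fold changes ran from -0.14 to 0.20.

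Of 19 adaptors and kinases 4 were higher and 1 lower in KO at an unadjusted p under 0.05, beside 8.92% and 8.04% of all tested genes. The higher ones were Traf3 (log2 fold change 0.20, edgeR adjusted p = 0.17), Tab2 (0.15, adjusted p = 0.20), Tirap (0.16, adjusted p = 0.25), which bridges TLR4 to MyD88, and Traf6 (0.16, adjusted p = 0.27), the ubiquitin ligase below the IRAK kinases. The lower one was Tab1 (-0.21, edgeR adjusted p = 0.17). Rela, for the main activating subunit of NF-kappaB, had an edgeR log2 fold change of 0.05 (SE 0.05, adjusted p = 0.67). Of 9 transcription factor genes only Irf3 had an unadjusted p under 0.05 (-0.12, edgeR adjusted p = 0.24), where 17.0% of all tested genes did.

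Of 25 other feedback genes tested 4 were higher and 3 lower in KO at an unadjusted p under 0.05, where 8.92% and 8.04% of all tested genes were. Atf3, a stress-induced repressor that the immediate early list also holds, measured 8.49 ± 1.16 CPM in WT and 12.5 ± 2.12 CPM in KO mice (SD, n = 5 each; edgeR log2 fold change 0.51, SE 0.12, adjusted p = 0.12). Bcl3 (log2 fold change 0.31, edgeR adjusted p = 0.15), Zfp36 (0.36, adjusted p = 0.25), whose product destabilises cytokine mRNAs, and the deubiquitinase gene Cyld (0.13, adjusted p = 0.29) were the other higher ones. Otulin (-0.18, edgeR adjusted p = 0.20), Sigirr (-0.13, adjusted p = 0.24) and Pdlim2 (-0.14, adjusted p = 0.25) were the lower ones.

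Of 23 tested NF-kappaB target genes 13 had positive and 10 negative log2 fold changes. Ptgs2, the inducible cyclooxygenase gene, measured 6.91 to 8.85 CPM in WT and 9.67 to 13.3 CPM in KO mice, the nearest to the threshold of all 97 (edgeR log2 fold change 0.47, SE 0.09, adjusted p = 0.0911). It passed by the DESeq2 Wald test (its adjusted p = 0.00598) and with no filter on low counts (edgeR adjusted p = 0.0443). Il1b, for the cytokine interleukin-1 beta, measured 6.38 ± 1.13 CPM in WT and 8.19 ± 0.924 CPM in KO mice (edgeR log2 fold change 0.37, SE 0.13, adjusted p = 0.19). Traf1 (-0.18, edgeR adjusted p = 0.15) and Ier3 (-0.23, adjusted p = 0.15) were the 2 with negative values at an unadjusted p under 0.05, beside 8.04% of all tested genes. The CPM ranges of Traf1 did not overlap, as in 1.88% of tested genes. Tnf, for the cytokine tumour necrosis factor, measured 1.06 ± 0.432 CPM in WT and 0.615 ± 0.365 CPM in KO mice (edgeR log2 fold change -0.86, SE 0.53, adjusted p = 0.43), and Il6, for interleukin-6, had at most 8 counts in a mouse.

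Macrophages and monocytes carry much of this pathway in lung, and their markers were read beside it. Summed CPM of 10 alveolar macrophage markers ranged from 780 to 948 in WT and from 667 to 891 in KO mice, and that of 10 monocyte and interstitial macrophage markers from 344 to 391 and from 358 to 385. By edgeR 0 of the 20 passed between the genotypes and 1 had an unadjusted p under 0.05, where 17.0% of all tested genes did. No marker of either list was at 0 in all mice.

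Sex was the other label that varied, and KO replicate 5, with Xist at the male level, is counted here among the females, as labelled. In the same edgeR fit 0 of 10 passed between males and females, where 0.583% of tested genes did, and 0 had an unadjusted p under 0.05, where 15.1% did (7.34% higher and 7.79% lower in males); DESeq2 and limma-voom also called 0. CPM ranges of the sexes overlapped in all 10; they did not overlap in 4.81% of tested genes. Tlr2 came nearest, with 24.4 ± 1.75 CPM in 3 males and 28.1 ± 2.91 CPM in 7 females (SD; edgeR log2 fold change -0.19, SE 0.09, unadjusted p = 0.0504, adjusted p = 0.33). Cd180 averaged 12.5 ± 1.10 CPM in the 3 males and 13.9 ± 1.54 CPM in the 7 females (SD; edgeR log2 fold change -0.17, SE 0.10, adjusted p = 0.49), beside 8 of 8 B cell markers with negative log2 fold changes (median -0.19) of which 0 passed by edgeR and 0 had an unadjusted p under 0.05. Without KO replicate 5 these sex differences were -0.20 for Tlr2 and -0.18 for Cd180 on the log2 scale, and 0 of the 10 genes passed between the sexes or between the genotypes.

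Of the 97 further pathway genes 2 passed between the sexes. Hsp90b1, which encodes gp96, the chaperone that folds Toll-like receptors, was higher in males at 594 ± 28.2 CPM (SD, n = 3), and its ranges did not overlap (females 441 to 496 CPM; edgeR log2 fold change 0.35, SE 0.06, adjusted p = 0.0148). Of 9 heat shock genes 8 were also higher in males at an edgeR adjusted p under 0.05, where 0.449% of all tested genes were. Their summed level was 1544 to 2593 CPM in the labelled males and 774 to 1267 CPM in the labelled females. KO replicate 5, labelled female with Xist at the male level, had a sum of 944 CPM. The part of the heat shock genes in Hsp90b1 was not tested. Without KO replicate 1, 0 of all tested genes passed between the sexes, heat shock genes included (1919 had an unadjusted p under 0.05). That fit set 2 labelled males, both WT, against 7 labelled females that held KO replicate 5, so it could say little about sex. The reason for the loss was not tested. Lcn2, an iron-sequestering antibacterial protein gene, was lower in males, at most 117 CPM beside 124 to 163 CPM in females (edgeR log2 fold change -0.44, SE 0.08, adjusted p = 0.0319). Without KO replicate 1, the KO mouse labelled male, neither passed (edgeR adjusted p = 0.17 and 0.16), whereas Hsp90b1 passed without KO replicate 5 (0.0190). Lcn2 also missed with no genotype covariate (0.0891), without KO replicate 5 (0.0598) or without WT replicate 2 (0.0751), 3 (0.13) or 5 (0.0675). At an unadjusted p under 0.05 stood 22 of the 97 (22.7%, beside 15.1% of all tested genes), 17 of them lower in males, where 7.79% of all tested genes were. Beside them, 6 of 8 T cell markers (8 of 8 negative, median -0.31) were lower in males at an unadjusted p under 0.05, where 7.79% of all tested genes were. Of 8 dendritic cell markers 3 were lower and 1 higher in males at that p, with log2 fold changes of -0.51 to 0.30. Red cell genes were higher in males at that p in 6 of 6, beside 7.34% of all tested genes. In KO replicate 5 the T cell, dendritic cell and red cell lists summed to 63.4, 81.4 and 12731 CPM. The labelled males had 47.4 to 51.8, 69.9 to 81.3 and 13062 to 19506 CPM. By edgeR 0 genes were called in these 3 lists, and their part was not tested.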

How the data were processed

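The authors deposited 1 table of unscaled estimated counts per gene. Stranded mRNA libraries were read as 50-base single reads, per the labels' protocols; the submitters' processing notes name STAR 2.6.0 and Salmon 0.9.1 and the builds mm10 and GRCm38, without roles. Estimated counts were rounded. Of 47333 identifiers 47281 matched GENCODE M21 (GRCm38); 0 columns lacked a sample. CPM used TMM-scaled totals of the tested genes, and RPKM divided them by merged exon length.

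KO and WT were compared by edgeR 4.0.16 (quasi-likelihood, robust; R 4.3.3) with sex as covariate, after filterByExpr by genotype (minimum count 10, minimum total 15), with Benjamini-Hochberg adjustment over 18024 genes and calls under 0.05. Intervals use the same fit and are unadjusted. Alternatives used DESeq2 1.42.0, limma 3.58.1, sva 3.50.0, other filters, and each mouse left out. Correlations used 100000 permutations of all 10 mice, regardless of genotype. On counts simulated for 18024 genes, 50 genes were changed at each size. KO against WT then recovered 24% of changes of 0.3, 66% of 0.5, 84% of 1 and 98% of 2 (log2), with 6.2% of calls false. Recovery under this adjustment depends on how many genes change, and the real comparison called 4. These shares therefore need not hold for the 10 genes. Named genes were Bpifb1, the 10 members, and per comparison up to 12 other pathway genes with the smallest p under 0.05, with the 3 genes most like each member; further names were chosen after their values were seen. Members and lists were chosen with earlier results of these data known. Replicate numbers follow accession order and pair no mice.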

Additional observations from a re-analysis of the deposited data

Results flagged for a closer look

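By Dixon's test on the 5 mice of each genotype, applied to 20 sets of values (10 genes in 2 genotypes), 1 stood out, where about 1 would by chance. Tnfaip3 in KO replicate 1, the KO mouse labelled male, was 23.82 CPM, while the other 4 KO mice lay between 30.8 and 32.9 CPM. Without this mouse the log2 fold change of Tnfaip3 was 0.40 (edgeR adjusted p = 0.11) in place of 0.24. The same mouse had the largest heat shock sum (2593 CPM), whose part in this value was not tested.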

How the results depend on the processing

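No paired analysis was possible because the labels give the mice no shared replicate numbers. The count of 0 called among the 10 genes held in all 21 genotype and 19 sex alternatives. Of 200 genotype and 180 sex fold changes of the 10 genes under alternatives, 192 and 170 kept direction and side of the threshold; the others turned sign, and the cause was not tested. Genotype values turned for Tlr4 (-0.0002) and Irak3 (-0.0047) with 1 surrogate variable, and for Irak3 in females alone (-0.0235) and in females without KO replicate 5 (-0.0212). With 1 mouse left out, genotype values ran from -0.0196 to 0.0921 for Tlr2 (turning without KO replicate 4), from -0.0232 to 0.1113 for Irak3 (KO replicate 1) and from -0.0938 to 0.0133 for Cd180 (KO replicate 4 or WT replicate 4). Sex values then ran from -0.0575 to 0.0340 for Myd88 (KO replicates 1 and 5, WT replicate 4), from -0.1090 to 0.0464 for Irak3 (WT replicates 2, 3 and 5), from -0.1403 to 0.1880 for Tnfaip3 (KO replicate 1) and from -0.0957 to 0.2999 for Nfkbia (WT replicates 2 and 5), which also turned with no genotype covariate (-0.0741).

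Genes called between KO and WT numbered 4, and 50 with no filter, 346 by DESeq2, 2 by limma-voom, 57 at an adjusted p under 0.1, 2 in females without KO replicate 5, and 2 to 18 with 1 mouse left out. Further pathway genes called numbered 0, and 2 with no filter, 2 by DESeq2 and 1 at an adjusted p under 0.1. Between the sexes 105 genes were called, and 197 with no filter, 41 with no genotype covariate, 436 by DESeq2, 262 with 1 surrogate variable, 351 at an adjusted p under 0.1 and 0 to 195 with 1 mouse left out; of the pathway genes 2 were called, and 1 with no genotype covariate, 4 by DESeq2 and 0 to 2 with 1 mouse left out. The call of Bpifb1 was lost in 11 of 20 alternatives (adjusted p up to 0.23), with log2 fold changes of -6.97 to -6.35. Depth limits Ly96 most, at 37 to 79 counts.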
